A study of Rattus norvegicus with 10 samples.

Results

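The genes described here encode the folding machinery of the endoplasmic reticulum (ER): the lumenal Hsp70 and Hsp90 chaperones with their co-chaperones, the protein disulfide isomerases and the oxidases that recharge them, the lectin chaperones, the prolyl isomerases, and the small ER proteins Manf, Cdnf, Creld1 and Creld2. Their names made up a list of 38 genes, and a gene was taken when its symbol in the authors' table equalled a listed name. This gave 37 of the 32402 genes listed; Uggt2 was not analysed here. RNA sequencing of polyadenylated RNA was used on the supraoptic nucleus of Wistar Han rats, in 5 euhydrated samples (free access to drinking water) and 5 dehydrated samples (no drinking water for 72 h). The nucleus was taken as punches on both sides with a 1 mm corer from 12 frozen slices, so each library holds whatever cells the punch held. No genotype, transgene or other agent is named for either group, and neither sex nor age is labelled. Whether a sample is 1 rat or a pool is not labelled either, so p-values speak for sample-to-sample spread, technical or biological.

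Proteins that enter the secretory pathway fold in the ER. Hspa5 (BiP) binds unfolded chains in cycles of ATP hydrolysis that J-domain proteins start and nucleotide exchange factors end, disulfide isomerases form and reshuffle disulfide bonds, and the lectins hold glycoproteins that still carry glucose. When unfolded protein builds up, the unfolded protein response raises the transcription of many of these genes. The magnocellular neurones of the supraoptic nucleus make vasopressin and oxytocin as precursors whose neurophysin part is rich in disulfide bonds, and they raise hormone output when drinking water is withheld.

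Each library held 24268398 to 28491926 counts assigned to genes. The tissue label was checked on the hormone transcripts, which were abundant in every library: Avp ran from 4274 to 7343 CPM (the usual scaled counts, here relative to each library's TMM-adjusted total) in euhydrated and from 7173 to 9641 CPM in dehydrated libraries, and Oxt from 2668 to 3280 and from 2989 to 4169 CPM. Both overlapped between the groups and did not pass (edgeR adjusted p = 0.080 and 0.254). The summed level of 10 of 10 magnocellular markers was 8229 to 11687 CPM in euhydrated and 12116 to 15915 CPM in dehydrated libraries, without overlap, and most of this sum was Avp and Oxt. Of the 10 markers 4 rose, Pdyn, Caprin2, Nrsn1 and Rxfp3, by 1.61- to 3.50-fold. Otp, Sim1, Pou3f2 and Calb1 had log2 fold changes of -0.05 to 0.09 and did not pass. These 8 are named after their values were seen. The summed level of 9 of 9 oligodendrocyte markers was 9956 to 14507 against 9514 to 12138 CPM, with 2 lower and 0 higher past the threshold; that of 9 of 9 astrocyte markers was 5954 to 7121 against 5921 to 7037 CPM, with 0 past it. The summed level of 6 of 7 erythrocyte markers, mostly haemoglobin genes, was 1013 to 2028 CPM in euhydrated and 582 to 1413 CPM in dehydrated libraries, with 1 lower past the threshold. All 6 had log2 fold changes below 0 (-1.52 to -0.66, median -0.71), and their mean log2 CPM changed by -0.84 from euhydrated to dehydrated libraries. All 7 of 7 pericyte and smooth muscle markers had log2 fold changes above 0 (median 0.15), and so had 4 of 5 matched fibroblast and meninges markers (median 0.20), beside a median of 0.14 for the members described below. None of these 12 passed, and their summed levels were 668 to 891 against 693 to 1009 CPM and 331 to 384 against 360 to 473 CPM. The summed levels of the other lists overlapped too: 255 to 284 against 267 to 313 CPM for 4 markers of oligodendrocyte precursors (1 rose), 353 to 392 against 337 to 372 CPM for 9 of microglia (0 passed), 427 to 450 against 419 to 477 CPM for 8 of endothelium (1 rose) and 40.5 to 66.6 against 34.8 to 66.8 CPM for 4 of ependyma (0 passed). Tmem212, an ependymal marker, was the only marker at 0 in a library. In punched tissue a larger share of magnocellular RNA and more of a transcript per cell cannot be told apart, and the part of these markers in the results below was not tested, except for the erythrocyte and oligodendrocyte levels, which were used as covariates.

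Of the 37 members, all of which passed the filter on low counts, 22 rose after water deprivation, 1 fell and 14 did not pass the threshold (edgeR quasi-likelihood test, Benjamini-Hochberg adjusted p below 0.05 over 15311 genes; "edgeR adjusted p" below). Of all genes tested 7.79% rose and 4.9% fell under the same rule. The rises were small: among the 22 the median was 1.19-fold and the range 1.08- to 1.39-fold. Among all 1192 genes that rose the median was 1.19-fold too, with a range of 1.06- to 10.5-fold. The median log2 fold change over the 37 members was 0.14, beside -0.0058 over all genes tested. In 19 members every dehydrated library lay above every euhydrated one, which held for 6.9% of all genes, and in 0 members did every dehydrated library lie below, beside 3.97% of all genes. Summed over the members, the level was 5999 to 6495 CPM in euhydrated and 7078 to 7490 CPM in dehydrated libraries, or 0.627% ± 0.0217 (SD, n = 5) and 0.721% ± 0.0134 of all counts. The authors' deposited table has 22 members higher and 1 lower at an adjusted p below 0.05, where 9.05% of its genes with an adjusted p were higher, and its 22 members were the same genes. DESeq2 run on the counts gave 22 as well, beside 9.36% of the 14122 genes to which it gave an adjusted p. Scaling by library totals alone gave 18, beside 5.9% of all genes tested. The oligodendrocyte level as a covariate gave 20, beside 6.39%, the column number as a replicate block 21, beside 7.58%, and a threshold of 0.01 gave 15, beside 4.3%. With the erythrocyte level as a covariate 11 rose, beside 3.89%.

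**Figure D1:**
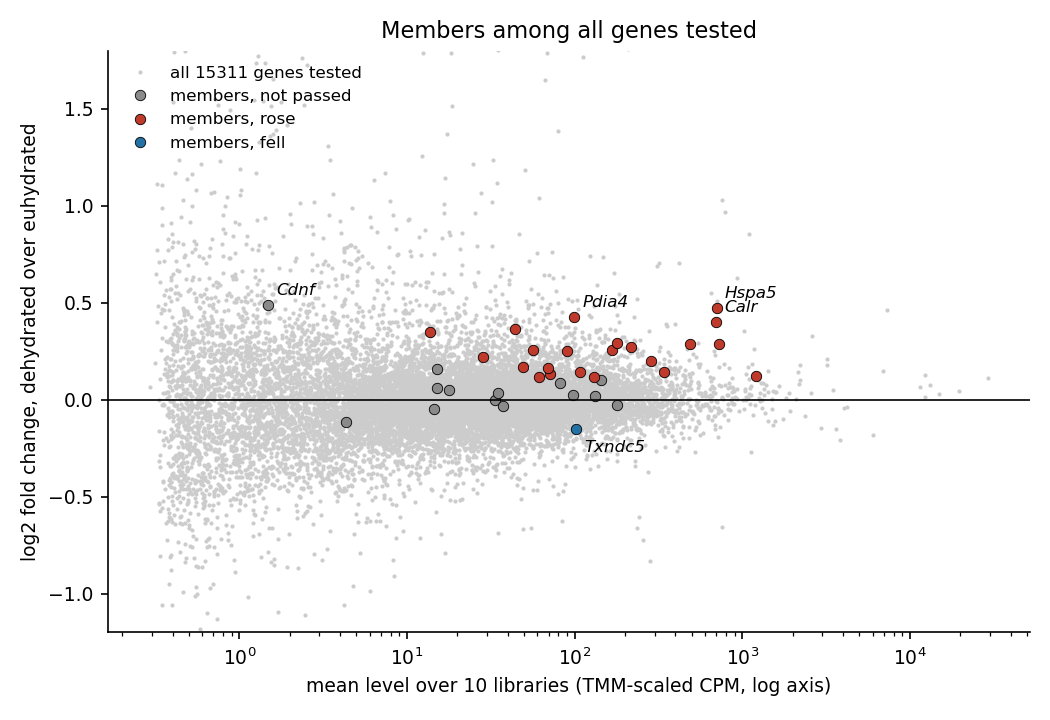
Log2 fold change (vertical axis, dehydrated over euhydrated) against mean level (horizontal log axis, TMM-scaled CPM over 10 libraries) for the members among all 15311 genes tested (small grey points; 28 lie beyond the plotted range of -1.2 to 1.8). The 22 members that rose sit between log2 fold changes of 0.12 and 0.47, and Cdnf lies as high as Hspa5 at a far lower level without passing the threshold.

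In the Hsp70 and Hsp90 system 9 of 11 members rose and 0 fell. Hspa5 (ENSRNOG00000018294), the lumenal Hsp70, was at 579, 562, 566, 612 and 630 CPM in euhydrated libraries 1 to 5 and at 780, 785, 840, 860 and 822 CPM in dehydrated libraries 1 to 5. The highest euhydrated library lay well under the lowest dehydrated one. Hspa5 rose 1.39-fold, or 0.47 ± 0.04 (SE) as a log2 fold change (edgeR adjusted p = 1.02e-06). Hsp90b1 (ENSRNOG00000026963), the lumenal Hsp90, was at 644, 640, 652, 656 and 680 CPM and at 764, 802, 790, 829 and 807 CPM in the same order. It was again higher in all 5 dehydrated libraries than in any euhydrated one, and rose 1.22-fold (0.29 ± 0.03 on the log2 scale; edgeR adjusted p = 8.53e-06).

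Both nucleotide exchange factors rose by less than Hspa5: Hyou1 went from 324 ± 13.4 to 358 ± 7.45 CPM (SD, n = 5; 1.10-fold) and Sil1 from 26.2 ± 2.20 to 30.5 ± 2.46 CPM (1.17-fold). Of the 5 J-domain co-chaperones 4 rose and Dnajc10 did not pass. Dnajc3, which also restrains the eIF2alpha kinase Eif2ak3, rose 1.29-fold (edgeR adjusted p = 0.00195) and Dnajc1, a membrane protein that binds ribosomes, 1.27-fold (edgeR adjusted p = 0.0056). With the erythrocyte level as a covariate the calls of Dnajc1 and Hyou1 were lost (edgeR adjusted p = 0.0702 and 0.0646), as were those of Sil1 and Dnajb11 (edgeR adjusted p = 0.202 and 0.260). Dnajb9, which helps deliver misfolded chains to degradation, rose 1.19-fold, and Dnajb11, an abundant partner of Hspa5 on new chains, 1.09-fold with overlapping groups (edgeR adjusted p = 0.0422). Dnajc10, which joins a J domain to disulfide reductase domains, was at 181 ± 5.64 and 177 ± 5.64 CPM (log2 fold change -0.03 ± 0.03; edgeR adjusted p = 0.642). Sil1 missed the threshold when euhydrated 1, 2 or 4 or dehydrated 1, 3 or 4 was left out (edgeR adjusted p = 0.0579 to 0.0863), and so did Dnajb11 for any of euhydrated 1 to 4 or dehydrated 2 to 5 (edgeR adjusted p = 0.0543 to 0.0991).

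Sdf2 and Sdf2l1 are related proteins that bind Dnajb11. Sdf2 was at 66.8, 68.1, 69.3, 70.0 and 68.1 CPM in euhydrated libraries and at 74.2, 75.1, 76.1, 75.3 and 75.0 CPM in dehydrated ones, a narrow spread in both groups with no overlap, and rose 1.10-fold (log2 fold change 0.13 ± 0.03; edgeR adjusted p = 0.00871, and 0.0638 with the erythrocyte covariate). Sdf2l1, the stress-inducible form, was at 14.9, 13.7, 12.9, 14.3 and 15.3 CPM and at 15.1, 16.5, 16.3, 17.8 and 13.8 CPM. Its groups overlapped and its log2 fold change, 0.16 ± 0.07, did not pass (edgeR adjusted p = 0.176), although it was no smaller than that of Sdf2.

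**Figure D2:**
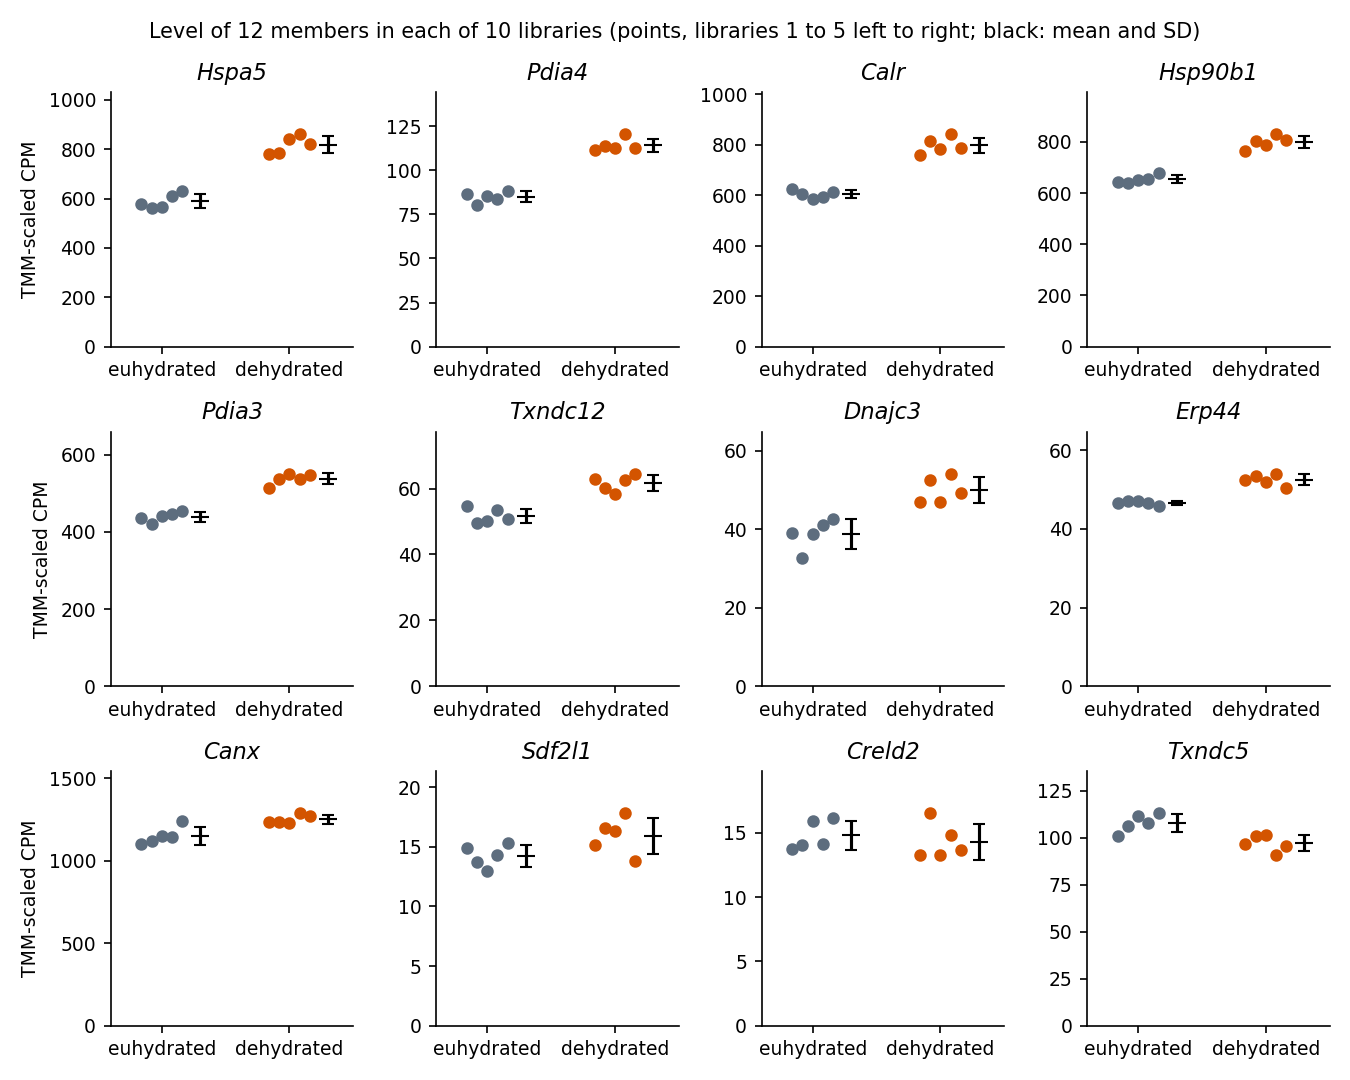
Level of 12 members (vertical axes from 0, TMM-scaled CPM) in the 5 euhydrated (grey) and 5 dehydrated (orange) libraries, with the group mean and SD in black. Hspa5, Pdia4, Calr, Hsp90b1, Pdia3, Txndc12, Dnajc3 and Erp44 show no overlap between the groups, while the points of Canx, Sdf2l1, Creld2 and Txndc5 overlap.

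Among the disulfide isomerases and other thioredoxin-fold proteins 8 of 12 rose, 1 fell and 3 did not pass. Pdia4 (ENSRNOG00000006228), a large isomerase found in complex with Hspa5, was at 86.7, 80.3, 85.7, 83.7 and 88.4 CPM in euhydrated and at 111, 114, 113, 120 and 113 CPM in dehydrated libraries. The groups were far apart, and Pdia4 rose 1.34-fold (log2 fold change 0.43 ± 0.03; edgeR adjusted p = 1.02e-06). Pdia3 (ENSRNOG00000015018), the isomerase that works with calnexin and calreticulin, was at 435, 421, 441, 446 and 456 CPM and at 514, 537, 550, 538 and 548 CPM, again without overlap, and rose 1.22-fold (0.29 ± 0.03 on the log2 scale; edgeR adjusted p = 8.72e-06). P4hb, the founding protein disulfide isomerase, went from 268 ± 12.1 to 307 ± 14.1 CPM (1.15-fold), and Pdia6, an isomerase that also acts on the stress sensor Ern1, from 197 ± 15.0 to 237 ± 18.4 CPM (1.21-fold). With the erythrocyte covariate neither passed (edgeR adjusted p = 0.0761 for P4hb and 0.152 for Pdia6).

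Among smaller and membrane-bound relatives, Tmx1, Txndc12, Erp29 and Erp44 rose and Txndc11 and Tmx3 did not pass. Tmx1, a membrane-anchored isomerase, rose 1.22-fold, Txndc12, a small lumenal protein with a single thioredoxin fold, 1.19-fold, and Erp29, which lacks the paired active-site cysteines, 1.19-fold. Erp44, which holds back immature disulfide-linked proteins and the Ero1 oxidases, had a narrow spread, 46.6 ± 0.570 against 52.5 ± 1.37 CPM (1.13-fold; edgeR adjusted p = 0.00422). Txndc11 and Tmx3, both membrane proteins, had log2 fold changes of 0.00055 ± 0.06 and 0.04 ± 0.04, and Pdia5, at 2.96 to 5.52 CPM over the 10 libraries, -0.11 ± 0.14 (edgeR adjusted p = 0.997, 0.647 and 0.671).

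Txndc5, a lumenal protein with several thioredoxin domains, was the member that fell. It was at 101, 106, 111, 108 and 113 CPM in euhydrated libraries and at 96.4, 101, 101, 90.8 and 95.5 CPM in dehydrated ones. The groups overlapped through euhydrated 1, the lowest of its group. Its log2 level fell by 0.15 ± 0.04 (edgeR adjusted p = 0.0194). That call did not survive the loss of euhydrated 3 or euhydrated 5 (edgeR adjusted p = 0.0544 and 0.0526) or the use of the erythrocyte level as a covariate (-0.09 ± 0.05; edgeR adjusted p = 0.334).

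The oxidases Ero1a and Ero1b pass electrons from the isomerases to oxygen. Ero1a was at 92.6, 106, 106, 102 and 107 CPM in euhydrated and at 116, 114, 115, 104 and 118 CPM in dehydrated libraries. Its groups overlapped through dehydrated 4, and it rose 1.10-fold (log2 fold change 0.14 ± 0.04; edgeR adjusted p = 0.0428). It missed the threshold when euhydrated 1, 2 or 4 or dehydrated 1, 2, 3 or 5 was left out (edgeR adjusted p = 0.0519 to 0.0993) and with the erythrocyte covariate (edgeR adjusted p = 0.0874). Ero1b, the form known from endocrine cells, was at 35.6, 36.4, 37.4, 38.8 and 41.1 CPM and at 39.9, 35.4, 33.3, 36.0 and 40.7 CPM, fully interleaved (log2 fold change -0.03 ± 0.06; edgeR adjusted p = 0.802).

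**Figure D3:**
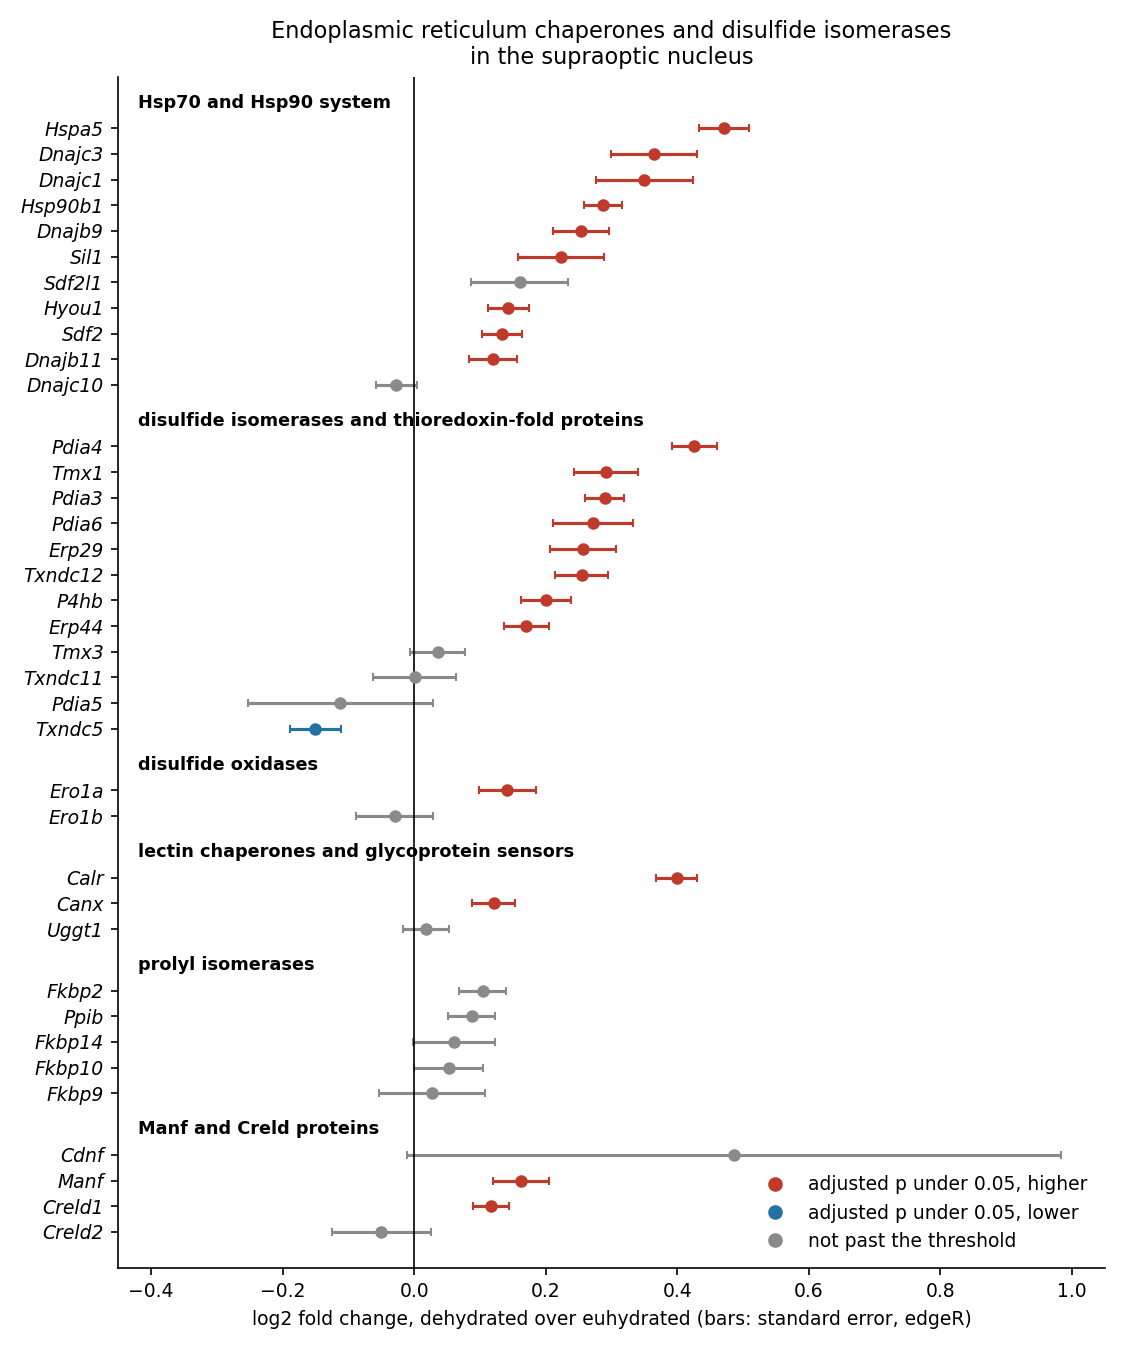
Log2 fold change of each of the 37 members (horizontal axis, dehydrated over euhydrated; bars are standard errors), grouped by role, with genes that rose in red, the gene that fell in blue and genes that did not pass in grey. The prolyl isomerases are all grey, at 0.03 to 0.10, while 9 of 11 members of the Hsp70 and Hsp90 system are red.

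Of the 3 lectin-cycle members measured, 2 rose and Uggt1 did not pass. Calr (ENSRNOG00000003029), the soluble lectin calreticulin, was at 625, 606, 586, 593 and 614 CPM in euhydrated and at 761, 816, 782, 841 and 789 CPM in dehydrated libraries, without overlap. It rose 1.32-fold (log2 fold change 0.40 ± 0.03; edgeR adjusted p = 8.07e-07). Its membrane-bound relative calnexin, Canx, was at 1103, 1123, 1150, 1144 and 1242 CPM and at 1238, 1236, 1229, 1288 and 1274 CPM. Only euhydrated 5 reached into the dehydrated range, and Canx rose 1.09-fold (0.12 ± 0.03 on the log2 scale; edgeR adjusted p = 0.0238). The call needed each of 4 libraries: it was lost on leaving out euhydrated 1, euhydrated 2, dehydrated 4 or dehydrated 5 (edgeR adjusted p = 0.0525 to 0.0681). It was also lost with the erythrocyte covariate (edgeR adjusted p = 0.139). Uggt1, which puts glucose back on misfolded glycoproteins, was at 131, 129, 128, 130 and 141 CPM and at 127, 134, 132, 139 and 134 CPM, with overlapping groups (log2 fold change 0.02 ± 0.03; edgeR adjusted p = 0.793).

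None of the 5 prolyl isomerases passed the threshold, although all 5 had log2 fold changes above 0 (0 of 5 in edgeR and 0 of 5 in DESeq2, with 2 of 5 at an unadjusted p under 0.05 in edgeR). Fkbp2 and Ppib came nearest. Ppib, cyclophilin B, was at 78.9 ± 1.81 and 83.8 ± 3.79 CPM without overlap (log2 fold change 0.09 ± 0.04; edgeR adjusted p = 0.138), and Fkbp2 at 138 ± 2.33 and 148 ± 7.55 CPM (0.10 ± 0.04; edgeR adjusted p = 0.0663). Without dehydrated 2, whose Fkbp2 level of 135 CPM was the lowest of its group, Fkbp2 passed (edgeR adjusted p = 0.00631). Fkbp10 and Fkbp14, known for collagen folding, and Fkbp9 had log2 fold changes of 0.03 to 0.06.

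Manf and Creld1 rose, while their relatives Cdnf and Creld2 did not pass. Manf, an ER protein that binds Hspa5 and is also secreted, was at 64.6, 61.6, 67.5, 65.6 and 67.8 CPM in euhydrated and at 68.0, 74.0, 77.4, 76.2 and 70.6 CPM in dehydrated libraries (1.12-fold; edgeR adjusted p = 0.0191). The call was lost without euhydrated 2 (edgeR adjusted p = 0.0502) or dehydrated 3 (edgeR adjusted p = 0.0558) and with the erythrocyte covariate (edgeR adjusted p = 0.132). The groups just missed each other. Cdnf was low, at 1.45, 0.250, 0.628, 2.47 and 1.38 CPM and at 0.692, 1.99, 2.48, 1.94 and 1.52 CPM, with as few as 7 counts in a library. Its log2 fold change of 0.49 ± 0.50 was therefore not measured closely enough to tell a rise from none (edgeR adjusted p = 0.595). Creld1, a membrane protein, was at 129, 124, 127, 123 and 127 CPM and at 134, 138, 137, 135 and 139 CPM and rose 1.08-fold (edgeR adjusted p = 0.0112, and 0.190 with the erythrocyte covariate). Creld2, its lumenal and stress-inducible relative, was at 13.7, 14.1, 15.9, 14.2 and 16.2 CPM and at 13.3, 16.5, 13.3, 14.8 and 13.6 CPM, interleaved (log2 fold change -0.05 ± 0.08; edgeR adjusted p = 0.731).

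Since a call in only one gene of a pair does not show that the pair differs, the log2 ratio of the related genes was compared between the groups (exact two-sided permutation test over all labellings of the 10 libraries, smallest possible p = 0.00794, adjusted over 5 pairs). The ratio of Calr to Canx was higher by 0.28 on the log2 scale in dehydrated libraries, in all 5 above every euhydrated library (exact permutation p = 0.00794, adjusted p = 0.0397). On leaving out any library but euhydrated 2, its change was 0.26 to 0.30 at an adjusted exact permutation p of 0.0794, since fewer libraries allow fewer labellings. The ratio of Ero1b to Ero1a went by -0.17 (exact permutation p = 0.0317, adjusted p = 0.0794) and that of Creld2 to Creld1 by -0.17 (exact permutation p = 0.0635, adjusted p = 0.106), and neither passed. Without euhydrated 2 the former passed (exact permutation, adjusted p = 0.0397). The ratios of Manf to Cdnf (-0.50, exact permutation p = 0.397) and of Sdf2l1 to Sdf2 (0.02, exact permutation p = 0.778) did not pass either, the former with an SD of 1.13 among euhydrated libraries. These log2 ratios set the change of 1 gene against the change of its relative and say nothing of which is more abundant.

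**Figure D4:**
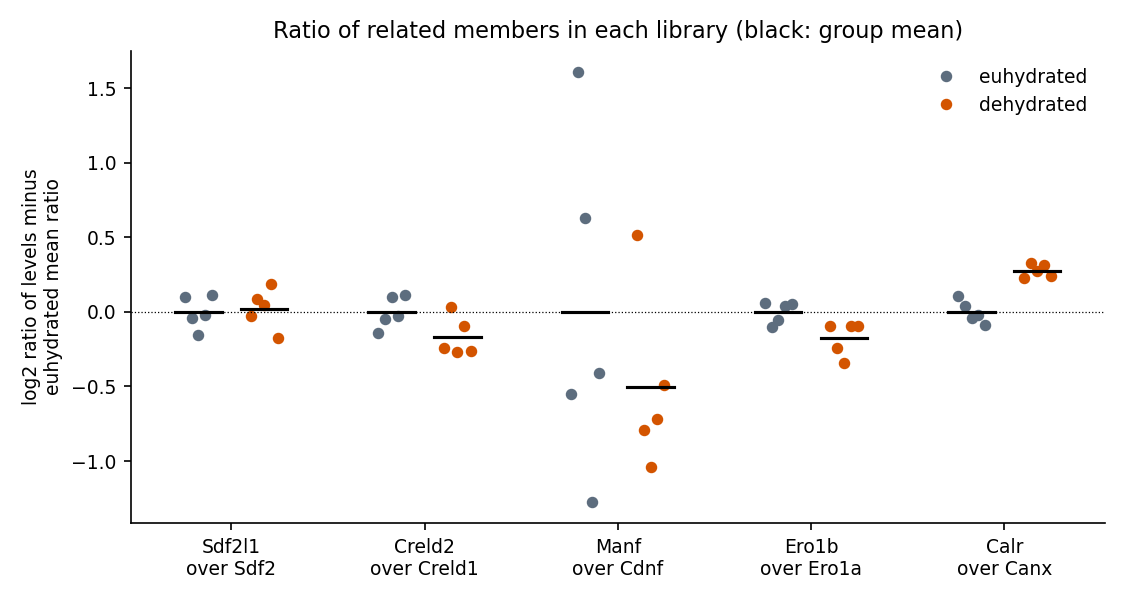
Log2 ratio of the levels of 2 related members in each library (points), with the euhydrated mean ratio of the pair set to 0 and group means as black bars. The 5 dehydrated libraries lie above all euhydrated ones for Calr over Canx, at a mean of 0.28, and the groups of Manf over Cdnf are wide, with Cdnf at 0.250 to 2.48 CPM.

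Within each group the same libraries were often at the ends of the range. Of the 22 genes that rose, 13 had their highest euhydrated value in euhydrated 5 and 13 their lowest in euhydrated 2. In the dehydrated group 10 were highest in dehydrated 4 and 12 lowest in dehydrated 1. The same was not counted over all genes tested, so this order may not be particular to these genes. Euhydrated 2 had the least Avp of its group, at 4274 CPM, and so had dehydrated 1, at 7173 CPM. Euhydrated 5 (7065 CPM) and dehydrated 4 (8150 CPM) had neither the most nor the least Avp of theirs. The least Oxt of each group was in euhydrated 5 (2668 CPM) and dehydrated 1 (2989 CPM). Euhydrated 2 (3012 CPM) and dehydrated 4 (3184 CPM) had neither the most nor the least Oxt. The part of this in the group difference was not tested. Leaving out euhydrated 2 left 17 members higher, and leaving out dehydrated 1 left 20.

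Of the alternatives tried, the erythrocyte marker level moved the count most. With it as a covariate, 11 of the 22 still rose and 0 fell. The 11 were Hspa5, Hsp90b1, Dnajb9, Dnajc3, Pdia3, Pdia4, Txndc12, Erp29, Erp44, Tmx1 and Calr, and the same 11 rose under every alternative tried. The call was lost for Hyou1, Sil1, Dnajb11, Dnajc1, Sdf2, P4hb, Pdia6, Ero1a, Canx, Manf and Creld1 (edgeR adjusted p = 0.0638 to 0.260 with the covariate). Over the 22 genes the log2 fold change with the covariate was a median of 0.975 times that without it, and the SE 1.38 times. Among the 11 that lost the call the ratio of log2 fold changes ran from 0.791 to 1.29.

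The promoters of the members were searched because the ER stress response element, ERSE, is the textbook site through which Atf6 and Xbp1, with the CCAAT-binding factor NF-Y, act on such genes. RefSeq windows of build GRCr8, from 250 bases before to 50 after each annotated start, were matched for 30 of the 37 members. ERSE (CCAAT and CCACG with 9 bases between, on either strand) was found for 7 of the 30 genes, beside 22 of all 33469 windows (0.0657%). The related ERSE-II (ATTGG and CCACG with 1 base between, on either strand) was found for 2 of 30, beside 17 windows (0.0508%). The 30 genes had 31 windows. Since ERSE was searched for as a site known to act on such genes, the contrast with all windows is a description and not a test. The 2 end motifs of ERSE are part of every ERSE and are common by themselves. CCAAT was in 37.5% of all windows and was found for 19 of the 30 genes (63.3%). CCACG was in 31.6% of all windows and was found for 23 of the 30 (76.7%). The sites are shown in the orientation of the motif, with the fixed bases in capitals and GRCr8 coordinates; the Hsp90b1 and Canx genes lie on the - strand and the others on the + strand. Those of Creld2, Ero1b and Calr, the proximal one of Hsp90b1 and both of Hyou1 lie on the strand opposite to the gene. Dnajb11 has an ERSE-II across its annotated start, which is not shown.
Hspa5 at chr3:38452973-38452991: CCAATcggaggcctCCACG
Hsp90b1, distal site at chr7:23012451-23012469: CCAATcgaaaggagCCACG
Hsp90b1, proximal site at chr7:23012347-23012365: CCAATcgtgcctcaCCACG
Creld2 at chr7:121789239-121789257: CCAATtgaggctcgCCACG
Canx at chr10:35158069-35158087: CCAATcatcacgctCCACG
Dnajc3 at chr15:102432534-102432552: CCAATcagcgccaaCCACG
Ero1b at chr17:92941458-92941476: CCAATgaggcgggaCCACG
Calr at chr19:40213135-40213153: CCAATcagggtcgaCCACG
Hyou1, distal site at chr8:53602694-53602704: ATTGGcCCACG
Hyou1, proximal site at chr8:53602794-53602804: ATTGGgCCACG

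Genes with a site and genes that rose were not the same, and whether the sites go with the rises was not tested. Of the members without a window, Creld1, Ero1a, Manf, Pdia3, Pdia6 and Tmx1 rose and Fkbp10 did not pass. Of the 16 members that rose and had a window 5 held ERSE (Hspa5, Hsp90b1, Calr, Canx and Dnajc3) and 2 ERSE-II (Hyou1 and Dnajb11), with rises of 1.09- to 1.39-fold. Of the 14 others 2 held ERSE, Creld2 and Ero1b, and their log2 fold changes were -0.05 and -0.03. Pdia4, the isomerase with the largest rise, had no ERSE or ERSE-II match but was among the genes with CCAAT and with CCACG. Only exact matches were counted, so imperfect sites would be missed. The 250 bases before the start are given for Hspa5 (chr3:38452766-38453015, + strand), the member with the largest rise among those past the threshold, and for Creld2 (chr7:121789134-121789383, + strand), which holds an ERSE and did not pass. Both are written 5′ to 3′ on the strand of the gene, in lower case with the ERSE in capitals, so that of Creld2 reads as the reverse complement of the motif. The ERSE of Hspa5 starts 43 bases before the annotated start and that of Creld2 145 bases before it. A match is a description of the letters in these windows, and the build of the authors' counts is not given in the sources used here.
Hspa5 promoter: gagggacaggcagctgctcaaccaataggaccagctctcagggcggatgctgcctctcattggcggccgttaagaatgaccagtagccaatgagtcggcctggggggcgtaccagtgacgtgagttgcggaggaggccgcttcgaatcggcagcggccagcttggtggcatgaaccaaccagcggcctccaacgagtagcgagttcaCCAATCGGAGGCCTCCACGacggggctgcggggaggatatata
Creld2 promoter: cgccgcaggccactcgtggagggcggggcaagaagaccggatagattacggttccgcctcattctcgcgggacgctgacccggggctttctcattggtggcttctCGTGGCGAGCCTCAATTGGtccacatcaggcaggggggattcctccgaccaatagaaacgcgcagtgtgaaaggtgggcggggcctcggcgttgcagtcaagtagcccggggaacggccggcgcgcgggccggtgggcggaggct

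Other genes of the pathway were counted in the same fit, from lists chosen for their known roles. The counts stand beside 7.79% of all genes tested that rose and 4.9% that fell. Of 16 sensors and regulators of the unfolded protein response 5 rose, 1 fell and 10 did not pass, with a median log2 fold change of 0.06. Atf4, the transcription factor translated when eIF2alpha is phosphorylated, rose 1.43-fold (edgeR adjusted p = 1.26e-07), its target Ppp1r15a, which helps to dephosphorylate eIF2alpha, 1.33-fold (edgeR adjusted p = 3.07e-05), and Creb3, a membrane-bound transcription factor, 1.25-fold (edgeR adjusted p = 3.1e-06). Atf6, whose cleaved form binds ERSE, was at 46.8 ± 1.44 and 51.5 ± 1.63 CPM and so rose 1.10-fold (edgeR adjusted p = 0.0262). Bhlha15, a secretory-cell transcription factor known as Mist1, fell 1.60-fold, with 4.26 ± 0.324 CPM going to 2.66 ± 0.453 CPM (edgeR adjusted p = 0.0024). Xbp1, whose spliced form drives ERSE genes, was at 81.4 ± 1.55 and 84.4 ± 4.01 CPM (log2 fold change 0.05 ± 0.04; edgeR adjusted p = 0.393); gene counts do not separate its spliced from its unspliced form. Ddit3, the other regulator that rose, was at 25.8 ± 2.01 and 31.3 ± 0.793 CPM (1.21-fold, edgeR adjusted p = 0.00241). Atf6 and Xbp1 were named for their link to ERSE, and Ddit3 to complete the 5 that rose, after their values were seen.

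Of 20 matched genes of degradation from the ER 4 rose, 0 fell and 16 did not pass, at a median log2 fold change of 0.09. They were the lectin gene Erlec1 (1.17-fold), the ubiquitin ligase gene Syvn1 (1.11-fold), the mannosidase gene Man1b1 (1.09-fold) and the ATPase gene Vcp (1.08-fold). Of 27 cytosolic chaperones 7 rose and 0 fell (median 0.04), led by the small heat shock protein gene Hspb8 (1.28-fold; edgeR adjusted p = 0.000195), with Hspa8, the constitutive Hsp70, up 1.13-fold, Hspa4, an exchange factor for it, 1.12-fold and Dnaja1, a J-domain partner, 1.11-fold. Of 10 mitochondrial chaperones 2 rose, Hspa9 and the protease Lonp1 (both 1.10-fold), and Trap1, the mitochondrial Hsp90, fell 1.11-fold (edgeR adjusted p = 0.0171). With library totals as the scale 2 degradation genes, 4 cytosolic and 1 mitochondrial chaperones rose. The cytosolic count was also 4 without euhydrated 4, dehydrated 2 or dehydrated 4, and without euhydrated 1 the mitochondrial counts were 1 higher and 0 lower. Among all genes tested 7.79% rose and 4.9% fell in the main fit, and 5.9% rose with library totals. With 1 library left out 6.21% to 7.22% of all genes rose. In a list of 10 genes, counts of 1 or 2 say little about the mitochondrial chaperones. The shares of the lists were not tested against those of all genes or of the ER members.

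**Figure D5:**
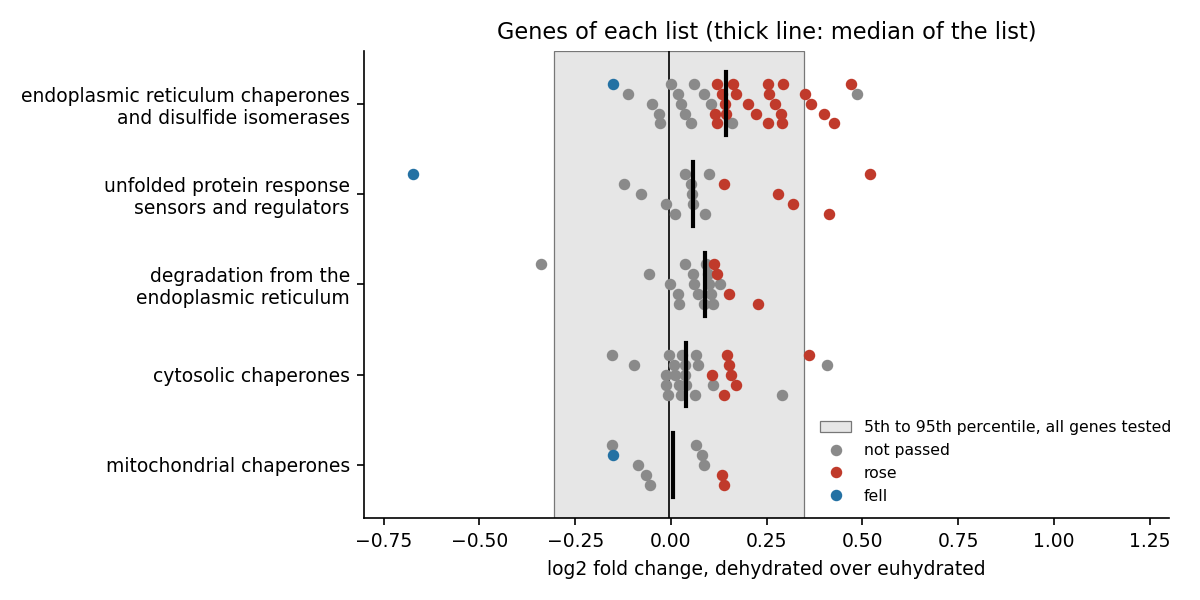
Log2 fold change (horizontal axis) of the genes of each list, with genes that rose in red, genes that fell in blue and others in grey; thick black lines are list medians, the thin line the median of all genes and the grey band their 5th to 95th percentile. The median of the ER members lies at 0.14, and those of the other 4 lists at 0.0055 to 0.09.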

How the data were processed

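Per the labels, libraries were made from polyadenylated RNA with a stranded kit. The submitters' processing notes name CASAVA, FastQC, STAR, featureCounts and DESeq2 1.28.1. The genome build, annotation and strand setting were not given in the sources used here. The authors deposited read counts by Ensembl gene ID, unnormalised, which were used for the tests, and a table with log2 fold changes, a test statistic (a score), p-values and adjusted p-values. The table the authors deposited also holds a normalised signal, made by dividing counts by 1 size factor per sample. In it 100% of values matched that quotient within 1% or 0.1. Of the count columns, 7 matched a sample, and euhydrated 3, 4 and 5 matched only the group, so their numbers name columns.

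Counts were fitted with edgeR 4.0.16 (quasi-likelihood test, filterByExpr, TMM factors, R 4.3.3) over 15311 genes, with Benjamini-Hochberg adjustment and a threshold of 0.05, and no covariate. Levels are CPM, and log2 CPM for pair ratios used a prior count of 2. No 2 libraries of a group agreed within counting noise (chi-square over its degrees of freedom was 4.86 to 12.1). The alternatives were other scalings and filters, DESeq2 1.42.0, limma-voom (limma 3.58.1), marker covariates, a stricter threshold and leaving out each library. The scripts were tested on 1 simulated data set with the levels and spread of these data. In it 48 to 50 of the 15200 genes tested were changed at each fold, fewer than the 1942 of 15311 that passed here. The Benjamini-Hochberg adjustment depends on that share, so the recovery rates need not hold for these data. The test recovered 18% of changes of 1.15-fold, 50% of 1.23-fold, 83.7% of 1.52-fold and 97.9% of 2-fold, in genes drawn from all levels. Of its calls 3.17% were false. A gene that did not pass may therefore still have changed by a small amount. Genes with overlapping or near-identical copies may share counts.

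Values in every library are given for members past the threshold with an absolute log2 fold change of at least 0.4 or among the 5 smallest p-values, for related pairs and for members that fell. Per pathway list up to 4 genes past the threshold with the largest change are named, and besides them Atf6, Xbp1 and Ddit3. The members and lists were chosen with earlier results of these data known. The pair of Uggt1 and Uggt2 was planned and could not be compared.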

Additional observations from a re-analysis of the deposited data

Results flagged for a closer look

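In 2 of 74 groups of 5 values (37 members in both conditions) a single library stood apart from the other 4 by Dixon's criterion for 5 values (a gap over range above 0.71), and chance gives about 1 in 20. Uggt1 in euhydrated 5 was at 141 CPM, where the next library was at 131 CPM and the lowest at 128 CPM. Fkbp2 in dehydrated 2 was at 135 CPM, where the next library was at 149 CPM and the highest at 153 CPM.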

How the results depend on the processing

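The 22 members that rose kept log2 fold changes above 0 in every alternative fit. Their count was 18 to 22 with other scalings, filters, DESeq2 or limma-voom (5.08% to 9.36% of genes with an adjusted p in each fit rose). It was 20 with the oligodendrocyte marker covariate (6.39%), 15 at a threshold of 0.01 (4.3%), and 17 to 22 with each library left out (6.21% to 7.22%). Only the erythrocyte covariate moved it by over 1.5 times, to 11 (3.89%). With library totals 18 rose (5.9%). Txndc5 was the member that fell; 0 fell with the erythrocyte covariate or at 0.01, and 0 to 1 with each library left out (0 without euhydrated 3 or 5). Same-numbered columns varied together little (correlations of deviations -0.07 to 0.14). That cannot show whether samples were collected or processed in pairs, since euhydrated 3, 4 and 5 matched only the group. With the number as a replicate block 21 rose (7.58%), Dnajb11 being lost (edgeR adjusted p = 0.0576), and 1 fell. Library totals also ended the calls of Sil1, Dnajb11, Ero1a and Canx (edgeR adjusted p = 0.0552, 0.126, 0.118 and 0.0822). The change in Calr over Canx was 0.26 to 0.30 with each library left out, but 4 against 5 libraries rarely allow the adjusted p to pass: it was 0.0794 in 9 of 10 fits. Ero1b over Ero1a ranged from -0.199 to -0.132 and passed without euhydrated 2 (exact permutation, adjusted p = 0.0397). Sdf2l1 over Sdf2 ranged from -0.0181 to 0.0729, below 0 without euhydrated 3 or dehydrated 4. With library totals 2 degradation genes, 4 cytosolic and 1 mitochondrial chaperones rose. With each library left out 4 to 8 cytosolic chaperones rose (4 without euhydrated 4, dehydrated 2 or dehydrated 4) and 0 to 1 fell (1 without dehydrated 4); 1 to 2 mitochondrial ones rose and 0 to 1 fell (1 and 0 without euhydrated 1). Among members that did not pass, signs changed near 0, and the cause was not tested. Txndc11 went to -0.00064 with DESeq2 size factors and with the DESeq2 test, -0.0259 with library totals, -0.0016 with a mean CPM of at least 1, -0.11 with the erythrocyte and -0.0099 with the oligodendrocyte covariate, and -0.0437 to 0.0446 with each library left out. Fkbp9 went to -0.00020 with library totals, -0.0191 with the oligodendrocyte covariate and -0.0102 to 0.0991 with each library left out. Ero1b was -0.0657 to 0.0066 with each library left out, Uggt1 -0.0090 with library totals, Pdia5 0.0236 with the oligodendrocyte and Creld2 0.00087 with the erythrocyte covariate. Depth limits Cdnf, with as few as 7 counts in a library, and Pdia5, with as few as 80.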
